A study of Homo sapiens with 4 samples.

Results

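The 10 genes described here encode proteins of the large ribosomal subunit. They comprise the 3 P-stalk genes RPLP0, RPLP1 and RPLP2 and 7 other large-subunit genes, RPL8, RPL13, RPL19, RPL27, RPL35, RPL37A and RPL41. Binding of LARP4 to their RNA was followed in HEK293, a cell line from human embryonic kidney, by enhanced crosslinking and immunoprecipitation (eCLIP), in which RNA bound to a protein is fixed to it by ultraviolet light and sequenced. The LARP4 eCLIP group had 2 biological replicates, irradiated at 254 nm with 400 mJ/cm2 and immunoprecipitated with an antibody to LARP4 (Bethyl, A303-900A). The size-matched input group had 2 replicates of crosslinked HEK293 cells with no antibody, and it entered only as the denominator of each value. The labels name no other treatment or genetic change in either group. The genes were chosen by fixed windows on 1 strand of hg19, and an interval belonged to a gene when it overlapped that gene's window. The windows held 173 of 171755 clusters in replicate 1, 185 of 191899 in replicate 2 and 101 of the 7153 regions in the authors' series-wide list. No interval of any of the 3 lists lay on the opposite strand of a window. All 10 genes had clusters in both replicates. A cluster is a stretch of genome where the authors found piled-up reads, its value is the authors' log2 fold of LARP4 eCLIP over input, and the number of reads behind it is unknown.

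Ribosomal proteins are made in matched amounts from very abundant mRNAs. In vertebrates these mRNAs begin with a run of pyrimidines, the 5′ terminal oligopyrimidine (TOP) motif, through which their translation follows growth signals, and LARP1, another member of the La-related family, is known to bind that motif. LARP4 is known to bind poly(A) and the poly(A)-binding protein and to keep the poly(A) tails of mRNAs long. The P-stalk is the flexible arm of the large subunit that recruits the elongation factors, with RPLP0 at its base and RPLP1 and RPLP2 bound to it as dimers.

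The transcript starts of the genes are shown because the TOP motif lies there. A further reason is that in most of the genes the 5′-most stretch of clusters had higher folds than the stretch after it. Sequences are from the RefSeq promoter table for GRCh38.p14, a different build from that of the clusters, and no position was carried over between builds. Each line holds 10 bases before the listed start and 20 from it. Capitals mark a C at the listed start followed by at least 4 bases that are C or T.
RPLP0, chr12:120201092-120201121, minus strand: ggcgcgaggcCCTTCTCTCgccaggcgtcc
RPLP1, chr15:69452808-69452837, plus strand: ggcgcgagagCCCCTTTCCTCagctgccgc
RPLP2, chr11:809957-809986, plus strand: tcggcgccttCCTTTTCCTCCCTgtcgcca
RPL13, chr16:89560672-89560701, plus strand: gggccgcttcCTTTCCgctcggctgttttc
RPL19, chr17:39200313-39200342, plus strand: agctctttcctttcgctgctgcggccgcag
RPL27, chr17:42998409-42998438, plus strand: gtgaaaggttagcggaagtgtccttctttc
RPL35, chr9:124861938-124861967, minus strand: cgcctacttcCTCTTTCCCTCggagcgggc
RPL37A, chr2:216498834-216498863, plus strand: gcgtctcttcCTTTCTgggctcggacctag
RPL41, chr12:56116623-56116652, plus strand: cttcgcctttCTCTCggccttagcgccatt

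A run counted from the listed start was present in 7 of the 9 genes, with 5 (RPL41) to 13 (RPLP2) bases. The share was 5.14% of the 27305 genes of the table outside chromosome 8. In all of these 7 genes but RPLP1, pyrimidines also came just before the listed start. Counted across it, the stretch had 10 bases in RPL41 and 17 in RPLP2. For RPL19, 2 starts are listed and a run was present at neither. A stretch of 12 pyrimidines lay across the start shown, which is a T. In RPL27 the listed start is an A, and the sequence shown ends in a pyrimidine stretch. For RPL13, 3 starts are listed and the run was present at 1 of them.

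LARP4 eCLIP gave high folds at many clusters of these genes in both replicates. A cluster was called enriched at a log2 fold of at least 3 (8-fold) and a −log10 p of at least 3. Enriched clusters made up 80 of 173 (46.2%, Wilson 95% interval 39.0 to 53.7) in replicate 1, where 5.01% of all clusters were enriched. In replicate 2 they made up 120 of 185 (64.9%, 57.7 to 71.4), where the share of all clusters was 5.50%. The intervals cover counting error only, and neighbouring clusters of 1 gene are not independent. The median log2 fold of the clusters was 2.93 in replicate 1 and 3.25 in replicate 2, against 1.28 and 1.30 over all clusters. All 10 genes had at least 1 enriched cluster in both replicates, which 20.4% of the 8844 loci with at least 5 clusters in each replicate also had. A locus joins all clusters of a strand that lie within 5 kb of the next, so it can span neighbouring genes. Among the 28261 loci that had any cluster in each replicate, 7.75% held an enriched one in both. The highest fold was moderate, at 4.33 in replicate 1 and 4.76 in replicate 2, against highest values of 8.05 and 7.92 in the whole lists. With the threshold on the log2 fold set to 4, RPLP2, RPL27 and RPL37A were the 3 genes with an enriched cluster in both replicates. The share of loci at that threshold was not computed.

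**Figure D1:**
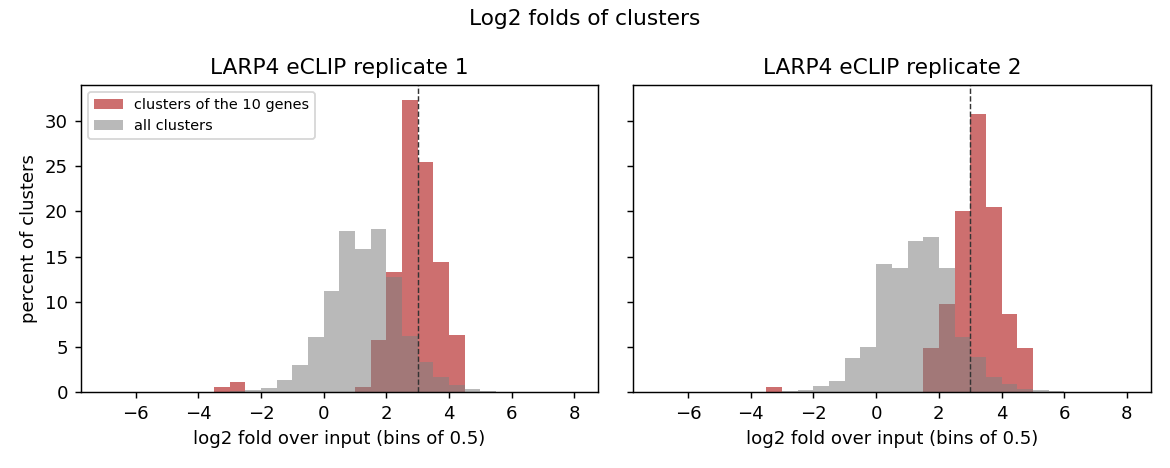
Log2 folds of LARP4 eCLIP over input in bins of 0.5, as percent of clusters, for the clusters of the 10 genes (173 in replicate 1 and 185 in replicate 2) and for all clusters of each replicate. The dashed line is the enrichment threshold of 3, and the genes' clusters lie around it, with medians of 2.93 and 3.25.

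Many of these clusters carried the smallest p that the lists give. The authors' −log10 p has an upper limit of 400, and 45 of the 173 clusters in replicate 1 and 55 of the 185 in replicate 2 were at it, or 26.0% and 29.7%. Over all clusters 0.293% and 0.274% were at the limit. The next highest −log10 p in these genes was 88.1, so how far beyond that a value at the limit lies is unknown. The genes thus held 8.95% of the 503 limit clusters of replicate 1 and 10.5% of the 525 of replicate 2, with 0.101% and 0.0964% of the clusters. The median −log10 p was 58.4 and 62.7, against 0.57 and 0.54 over all clusters. A p of this kind grows with read number as well as with fold, the abundance of the mRNAs was not measured here, and its part in these values was not tested.

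The level of each gene, its mean log2 fold over all covered bases, was between 2.44 and 3.74 as an average of both replicates, with a median of 3.04 over the 10 genes. The median of the 8844 loci was 1.39, with a middle range of 0.94 to 1.89. RPL37A was the highest at 3.74 ± 0.18 (SD, n = 2), or 13.4-fold over input, and RPL27 followed at 3.68 ± 0.34. RPLP1 had 3.47 ± 0.46, RPL8 had 3.30 ± 0.26 and RPLP2 had 3.11 ± 1.00. These were followed by RPL41 at 2.97 ± 0.45, RPL35 at 2.91 ± 0.29 and RPL13 at 2.76 ± 0.08. RPL19 at 2.47 ± 0.01 and RPLP0 at 2.44 ± 0.09 were the lowest, with RPLP0 at 5.42-fold. The replicate values of neighbours in this order overlapped except for RPL13 and RPL19. The values of RPL37A did not overlap those of RPL8 or of any gene with a lower average except RPLP2, whose replicates were 2.40 and 3.81. No test of the order was made with 2 replicates.

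**Figure D2:**
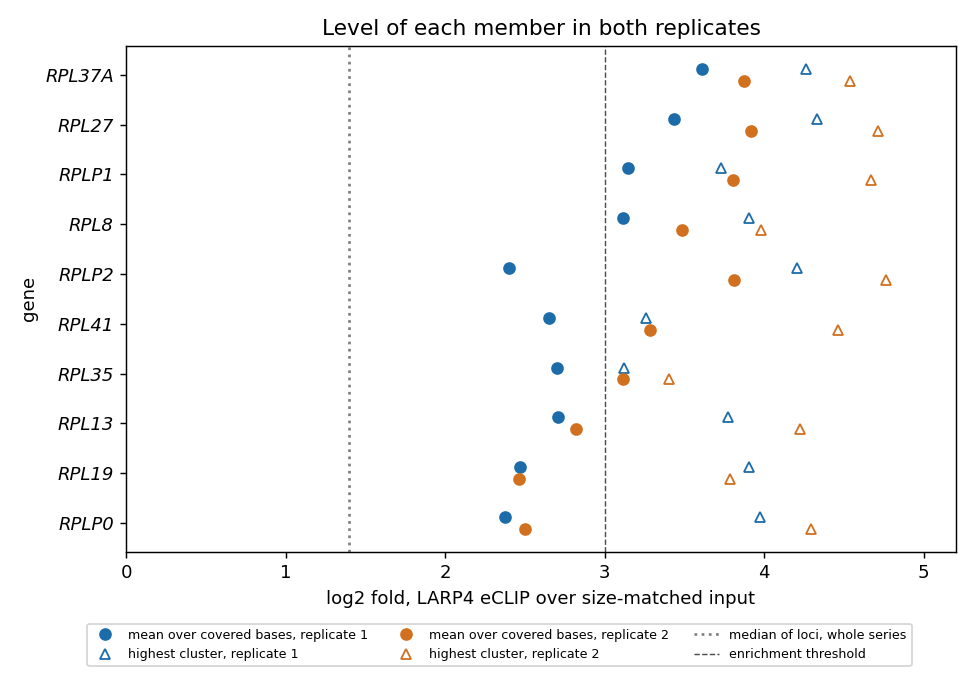
Log2 fold over input of each gene in replicates 1 and 2, as the mean over all covered bases (filled circles) and as the highest cluster (open triangles). The dotted line is the median of 8844 loci of the series (1.39) and the dashed line the threshold of 3. Every gene's mean lies right of the dotted line. RPLP0, RPLP2 and RPL19 lie lowest in replicate 1, at 2.37, 2.40 and 2.47, and RPL19 and RPLP0 lie lowest in replicate 2.

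The P-stalk genes differed among themselves. RPLP1 and RPLP2, which encode the dimer partners, were enriched at most of their clusters, whereas RPLP0, which encodes their anchor, was enriched at few clusters. As a set the 3 genes were close to the other 7, with 23 of 44 (52.3%) and 33 of 51 (64.7%) clusters enriched in replicates 1 and 2, against 57 of 129 (44.2%) and 87 of 134 (64.9%). Their −log10 p was at the limit in 40.9% and 41.2% of clusters, against 20.9% and 25.4% in the other 7 genes, and all of these P-stalk clusters lay in RPLP1 and RPLP2.

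RPLP0 (hg19 chr12:120634400-120639000, minus strand) had 14 clusters in replicate 1 and 19 in replicate 2. Of these 1 and 2 were enriched. Clusters of both replicates joined across gaps of up to 50 bases formed 9 blocks, and the block means ran between 1.71 and 2.93 in all blocks but the last. That last block, at the 3′ end (120634541 to 120634587), had log2 folds of 3.97 in replicate 1 and 4.29 in replicate 2. It was the gene's single series-wide region, with 4.13 ± 0.23 (SD, n = 2), and its −log10 p of 6.91 and 9.43 was among the lower ones of the gene. The second enriched cluster of replicate 2 lay at 120635125 to 120635167 with 3.08, and the replicate 1 cluster there had 2.26. RPLP0 thus joined a level below the threshold over its body with a 3′ end above it. The 3′-most blocks of RPLP1 had 3.37 and 4.41 in replicates 1 and 2, and those of RPLP2 had 4.20 and 4.38.

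RPLP1 (chr15:69745100-69748200, plus strand) had 11 of 14 clusters enriched in replicate 1 and all 16 in replicate 2. From 5′ to 3′ its 4 blocks averaged 2.76, 3.44, 3.59 and 3.37 in replicate 1. The replicate 2 means were 3.28, 3.90, 4.13 and 4.41. Each block was higher in replicate 2, and the first block was the lowest in both. The series-wide list holds only regions that met the enrichment threshold, and all 11 of those in RPLP1 had an enriched cluster in both replicates. The region with the highest lower replicate value, at 69747509 to 69747522, had 3.73 and 3.87 in replicates 1 and 2. The regions nearest the 5′ and the 3′ end (69745245 to 69745251 and 69747808 to 69747831) had 3.33 ± 0.27 and 4.06 ± 0.87.

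RPLP2 (chr11:809600-813000, plus strand) had 11 of 16 clusters enriched in replicate 1 and 15 of 16 in replicate 2. Its 2 most 3′ blocks averaged 4.03 and 4.20 in replicate 1 and 4.20 and 4.38 in replicate 2. Its first 2 blocks averaged 3.38 and 2.82 in replicate 1 and 3.89 and 3.22 in replicate 2. The region with the highest lower value was also the one nearest the 3′ end (812760 to 812773), with 4.20 in replicate 1 and 4.76 in replicate 2 and a −log10 p at the limit in both. It was at least 18.4-fold above input in each replicate. The region nearest the 5′ end (809969 to 810005) had 3.67 ± 0.41 (SD, n = 2). Between these ends replicate 1 had clusters far below input at 811709 to 811742 and 811758 to 811784, with log2 folds of −2.90 and −3.09, where replicate 2 had no cluster. Without them the gene's level in replicate 1 was 3.46 in place of 2.40, and the average over replicates was 3.64 ± 0.25 in place of 3.11 ± 1.00.

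The protein encoded by RPL8, known also as uL2, lies near the catalytic centre of the large subunit. RPL8 had the most intervals of the 10 genes, with 17 of 30 clusters enriched in replicate 1 and 31 of 34 in replicate 2 (chr8:146015100-146017900, minus strand). From 5′ to 3′ its 7 blocks averaged 2.83, 2.48, 2.90, 3.23, 3.32, 3.68 and 3.66 in replicate 1. In replicate 2 they averaged 3.62, 3.16, 3.40, 3.45, 3.59, 3.57 and 3.85. In replicate 1 the 3 blocks nearest the 5′ end thus lay below the threshold and the other 4 above it, while in replicate 2 all 7 lay above. The series-wide list held 28 regions there, covering 82.4% of all bases under a cluster. Both replicates were enriched at 19 of them and replicate 2 alone at 9. The region nearest the 3′ end, which also had the highest lower value (146015191 to 146015262), was nearly the same in both replicates at 3.84 and 3.87. The region nearest the 5′ end (146017764 to 146017773) had 2.90 and 3.61.

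RPL37A (chr2:217363500-217366300, plus strand) encodes a small zinc-binding protein. It had 14 of 17 clusters enriched in replicate 1 and 14 of 15 in replicate 2. Its 4 blocks averaged 3.72, 3.05, 3.65 and 4.22 from 5′ to 3′ in replicate 1. The replicate 2 means were 4.30, 3.30, 3.72 and 4.53. Both ends were higher than the second block in both replicates. The region at 217366087 to 217366169, nearest the 3′ end, had 4.26 and 4.54, at least 19.2-fold over input, and the region at the 5′ end (217363565 to 217363597) had 3.74 and 4.31. All 4 of these values had a −log10 p at the limit.

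RPL27 (chr17:41150400-41155000, plus strand) is a gene in which variants cause Diamond-Blackfan anaemia, a failure of red cell production. It had 10 of 14 clusters enriched in replicate 1 and 9 of 11 in replicate 2. Its 5′-most block was a cluster of 3 bases in replicate 2 alone, with 2.73. The other 4 blocks averaged 2.99, 3.02, 4.27 and 3.58 in replicate 1. In replicate 2 they averaged 3.49, 3.55, 4.47 and 4.51. The 2 blocks on the 3′ side were higher than the 2 before them in both replicates. The region with the highest lower value of all 101 (41154718 to 41154795) had 4.33 and 4.41, at least 20.1-fold over input. The region at the 3′ end (41154904 to 41154949) had 3.71 and 4.72, and the one nearest the 5′ end (41150766 to 41150833) had 3.01 and 3.49.

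RPL13 (chr16:89627000-89633300, plus strand) is a gene in which variants cause a skeletal dysplasia. It had 10 of 26 clusters enriched in replicate 1 and 15 of 28 in replicate 2, close to the threshold along most of its length. Leaving 1 block aside, its block means were between 2.63 and 3.75 in replicate 1 and between 2.94 and 4.22 in replicate 2, and the 3′-most block was the highest in both. The 3′-most region (89629504 to 89629568) had 3.78 and 4.22, and the 5′-most region (89627090 to 89627117) had 3.11 and 3.66. The block left aside was a cluster far below input in both replicates, at 89627859 to 89627902 in replicate 1 with −2.97 and at 89627860 to 89627903 in replicate 2 with −3.21. Without it the gene's level was 3.16 ± 0.10 (SD, n = 2) in place of 2.76 ± 0.08.

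The clusters below input made up 3 of 173 in replicate 1 and 1 of 185 in replicate 2, against 11.6% and 11.2% of all clusters. They lay in RPLP2 and RPL13. RefSeq lists a small nucleolar RNA gene inside 2 of the 10 genes, SNORA52 within RPLP2 and SNORD68 within RPL13, and none inside the other 8. Small nucleolar RNAs are stable noncoding RNAs cut from introns. Whether the low clusters lie at these RNAs was not tested, since the RefSeq table is of another build.

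RPL19 (chr17:37356500-37361000, plus strand), whose protein forms a bridge to the small subunit, was highest at its ends. Enriched were 4 of 25 clusters in replicate 1 and 4 of 23 in replicate 2. Its end blocks averaged 3.06 ± 0.30 at the 5′ end and 3.13 ± 0.14 at the 3′ end (SD, n = 2), and the 4 blocks between them averaged 2.07 to 2.17. In replicate 1 the first block had 2.85 and the last 3.23, and in replicate 2 they had 3.27 and 3.02, with inner blocks of at most 2.34 in both. The region at the 3′ end (37360911 to 37360961) had 3.90 and 3.78, and the region at the 5′ end (37356573 to 37356602) had 2.85 and 3.27.

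RPL35 (chr9:127620100-127624300, minus strand) encodes a protein at the mouth of the peptide exit tunnel. It was close to the threshold, and its calls differed between replicates, with 1 of 8 clusters enriched in replicate 1 and 7 of 12 in replicate 2. Its 4 blocks averaged 2.36, 2.21, 2.90 and 3.01 from 5′ to 3′ in replicate 1. The replicate 2 means were 3.24, 2.90, 2.96 and 3.22. The replicates differed most at the 5′ end. Its single region (127620185 to 127620266), at the 3′ end, had 3.12 and 3.40 with a −log10 p at the limit in both.

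RPL41 (chr12:56510300-56511700, plus strand) encodes the smallest ribosomal protein, and it had the opposite course. Its 4 blocks averaged 3.11, 2.74, 2.61 and 2.34 from 5′ to 3′ in replicate 1. In replicate 2 they averaged 4.34, 3.37, 3.003 and 2.76. Each block was lower than the one before it in both replicates. Enriched clusters numbered 1 of 9 in replicate 1 and 7 of 11 in replicate 2. Of its 4 regions, the one with the highest lower value (56510435 to 56510443) had 3.26 and 4.10, and the 5′-most region (56510418 to 56510434) had 2.98 and 4.46. The region nearest the 3′ end (56510581 to 56510583) had 2.73 and 3.34.

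**Figure D3:**
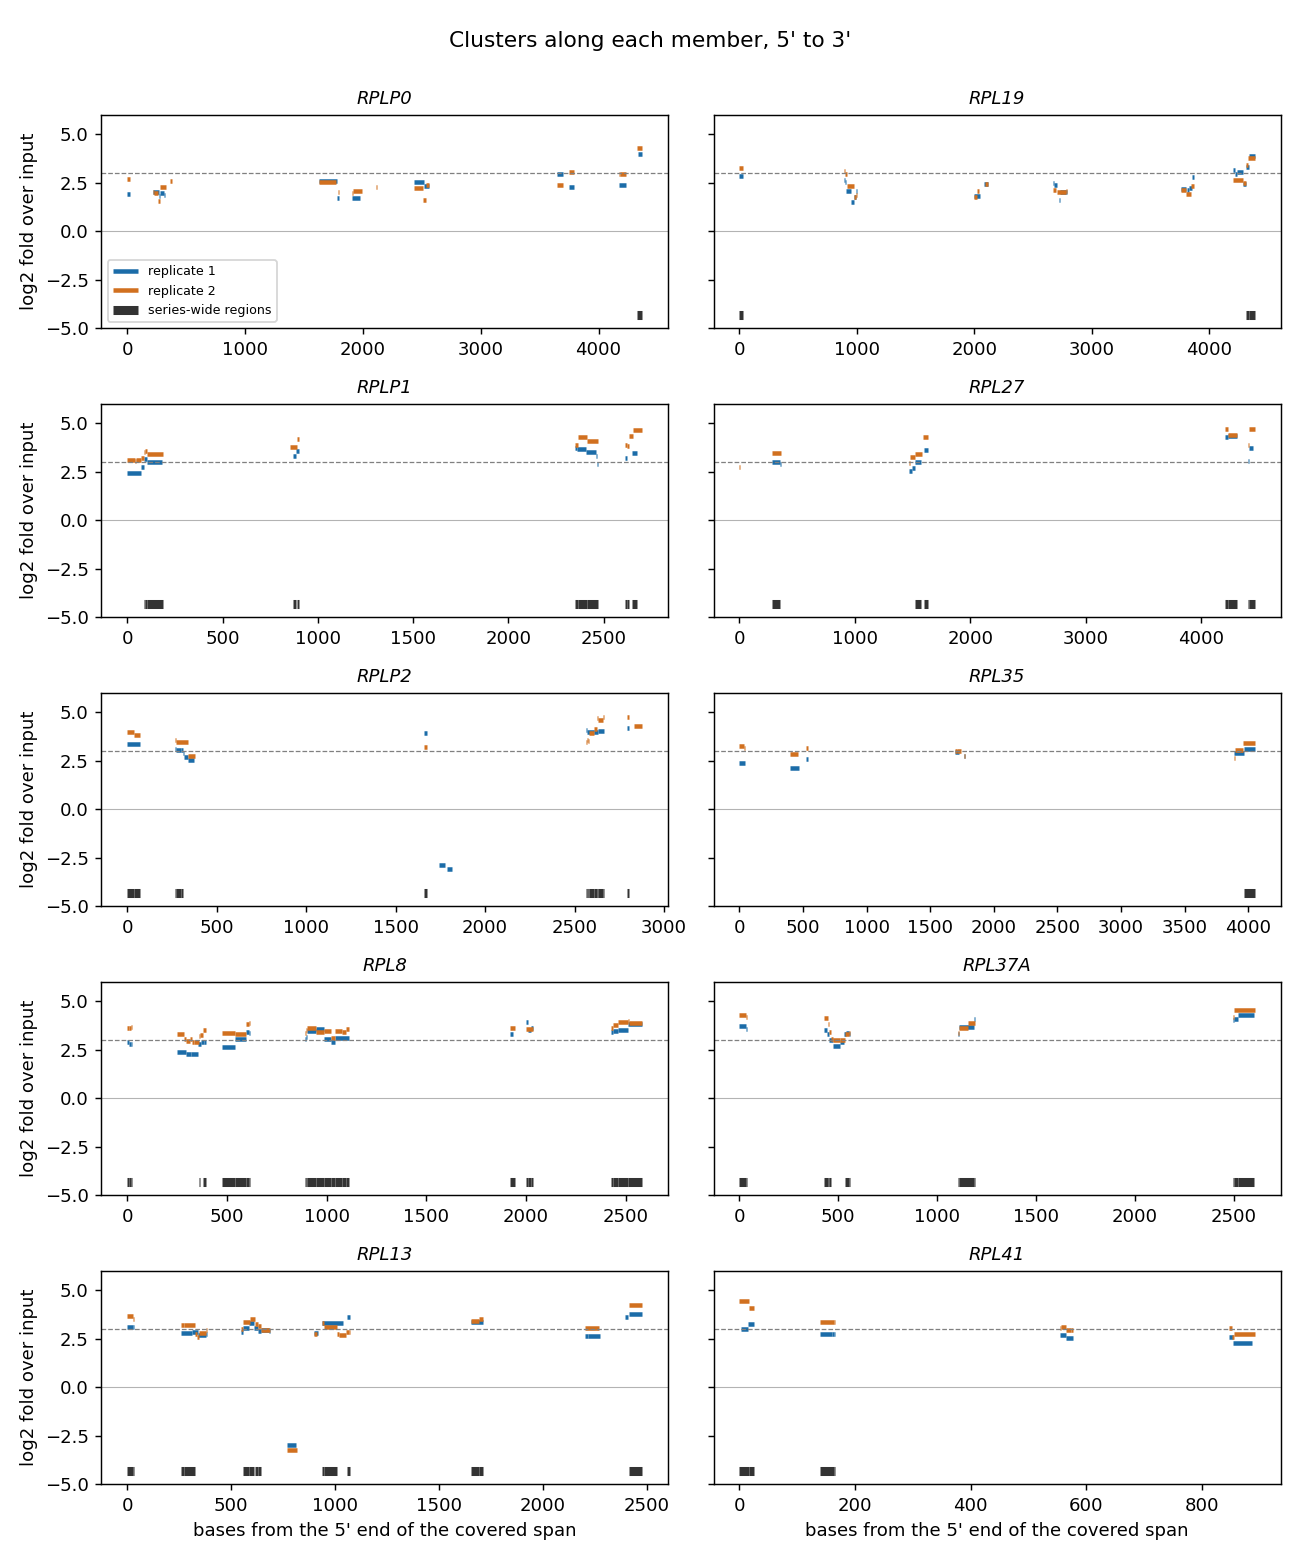
Log2 fold of LARP4 eCLIP over input (vertical axis) for each cluster of replicates 1 and 2 along the 10 genes, with distance in bases from the 5′ end of the span that clusters covered. Black bars at the bottom are series-wide regions, and the dashed line is the threshold of 3. The highest cluster of each replicate lies in the 3′ part of the covered span in 9 genes, a count with no share of loci beside it. RPL41 runs downward, and RPLP2 and RPL13 hold the clusters below input.

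The 3′ side carried higher folds than the 5′ side in most of the genes, and how many depended on the measure. With each covered span cut into 3 equal parts, the mean log2 fold of the 3′ part was above that of the 5′ part in both replicates in all genes but RPL41. That is 9 of 10, against 44.9% of 7525 loci cut into 3 parts. The loci are not a like background, since they are not bounded by gene windows and can span neighbouring genes. The locus that holds RPLP1 is 33486 bases long, against a covered span of 2703 in its window. By single blocks, the 3′-most block was above the 5′-most block in both replicates in 6 of the 9 genes where both had clusters in both replicates. RPL19 differed by 0.38 and −0.24 and RPL35 by 0.65 and −0.02 in replicates 1 and 2. RPL41 was lower in its 3′-most block in both, and RPL27 could not be compared. Ends here are those of the covered span, which can stop short of the window. The last cluster ended at 56511309 in RPL41 and at 89629568 in RPL13, with windows to 56511700 and 89633300. The highest cluster of each replicate lay in the 3′ part in all genes but RPL41, and the share of loci with this placement was not computed. The median difference was 0.81 over the genes and 0.24 over the loci. RPL27 had 4.06 and 4.49 in the 3′ part, in replicates 1 and 2, against 2.89 and 3.38 in the 5′ part, a difference of 1.14 ± 0.04 (SD, n = 2). RPL37A had 4.22 and 4.53 against 3.20 and 3.52, a difference of 1.02 ± 0.01. The differences of RPLP2, RPLP0, RPLP1 and RPL8 were 0.90 ± 0.16, 0.86 ± 0.05, 0.77 ± 0.12 and 0.71 ± 0.32. With the span cut into 2 parts the difference of RPLP2 was −0.28, with its clusters below input in the 3′ part, and 0.83 without them. Those of RPL35 (0.47 ± 0.39) and RPL19 (0.42 ± 0.42) were close to the spread between replicates. RPL13 had 1.16 ± 0.09, but its cluster below input lies in the 5′ part, and without that cluster the difference was 0.37. RPL41 had 2.34 and 2.76 in the 3′ part against 2.92 and 3.85 in the 5′ part, a difference of −0.83 ± 0.37, a direction that 25.4% of the loci had in both replicates.

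**Figure D4:**
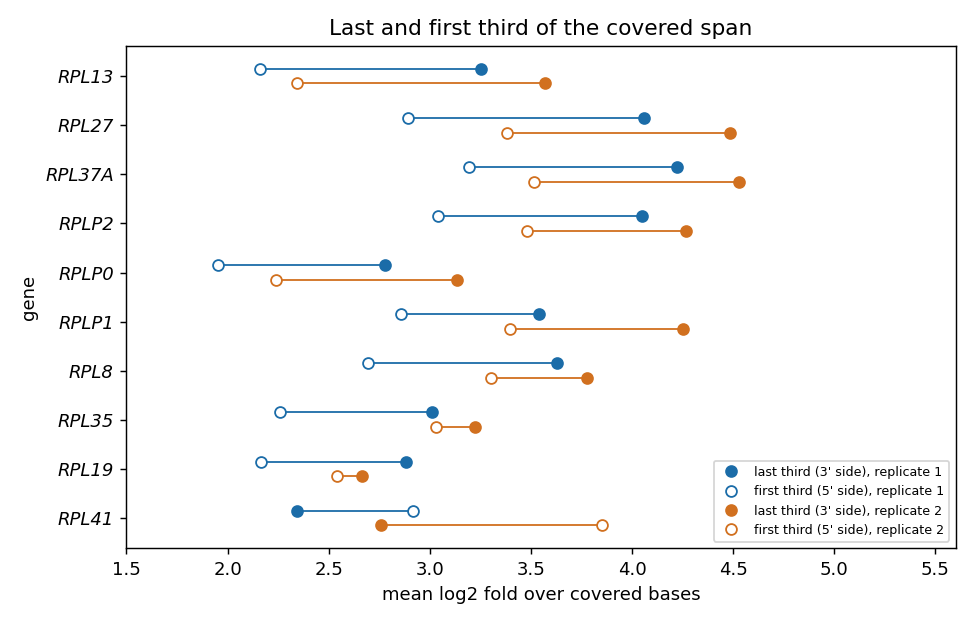
Mean log2 fold over covered bases in the 3′ part (filled circles) and the 5′ part (open circles) of each gene's covered span, cut into 3 equal parts, for replicates 1 and 2. The filled circle lies right of the open one in both replicates in 9 genes, and left of it in RPL41, at 2.34 and 2.76 against 2.92 and 3.85.

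The 5′-most block lay above the next block in most of the genes. This comparison was chosen after the values were seen. It does not make that block a high point of the whole gene. In replicate 1 the 5′-most block had 2.83 in RPL8 and 2.36 in RPL35, below the 3′-most blocks at 3.66 and 3.01. In RPL41 the 5′-most block was the highest of all its blocks in both replicates. The 5′-most block was higher than the next in both replicates in 7 of the 9 genes where both blocks had clusters in both replicates. Of the 1991 loci where the same could be asked, 29.3% had this order, and these loci too can span neighbouring genes. The 7 genes were RPLP2, RPL8, RPL13, RPL19, RPL35, RPL37A and RPL41. The step was 0.87 and 0.93 in RPL19, 0.67 and 1.00 in RPL37A, 0.37 and 0.97 in RPL41, and 0.15 and 0.35 in RPL35, in replicates 1 and 2. RPLP1 went the other way by −0.68 and −0.62, and RPLP0 had −0.05 and 0.58. Of the genes with a sequence above, RPLP2, RPL13, RPL35, RPL37A and RPL41 had both this order and a pyrimidine run at the listed start. RPLP0 and RPLP1 had the run without the order, and RPL19 had the order with 12 pyrimidines across a listed start that is a T. RPL27 could not be compared, since its 5′-most block had a cluster in replicate 2 alone. A link between the run and this order was not tested. Whether a 5′-most block lies at the listed start is not known, since no position was carried over between builds.

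Replicate 2 gave higher folds than replicate 1 in these genes. Of the 173 clusters of replicate 1, 98.3% overlapped a replicate 2 cluster, against 44.8% of all clusters. Each replicate 1 cluster was paired with its longest overlap, so 1 replicate 2 cluster can stand in several pairs. Among these 170 pairs, 76 were enriched in both replicates (44.7%, against 6.51% of all 77005 pairs). Only the replicate 2 cluster was enriched in 41 pairs, only the replicate 1 cluster in 3, and no cluster in 50. Replicate 2 was higher in 133 of the 170 pairs (78.2%), against 53.9% of all pairs. The median difference was 0.36, against 0.09 over all pairs, and 97.1% of the genes' pairs were within 1 log2 unit, against 73.4% of all pairs. RPL8 had 11 of the 41 pairs enriched in replicate 2 alone, RPL13 and RPL41 had 6 each and RPL35 had 5. By gene, the median difference was largest in RPL41 (0.62), RPL27 (0.56) and RPLP1 (0.56), and it was −0.01 in RPL19.

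**Figure D5:**
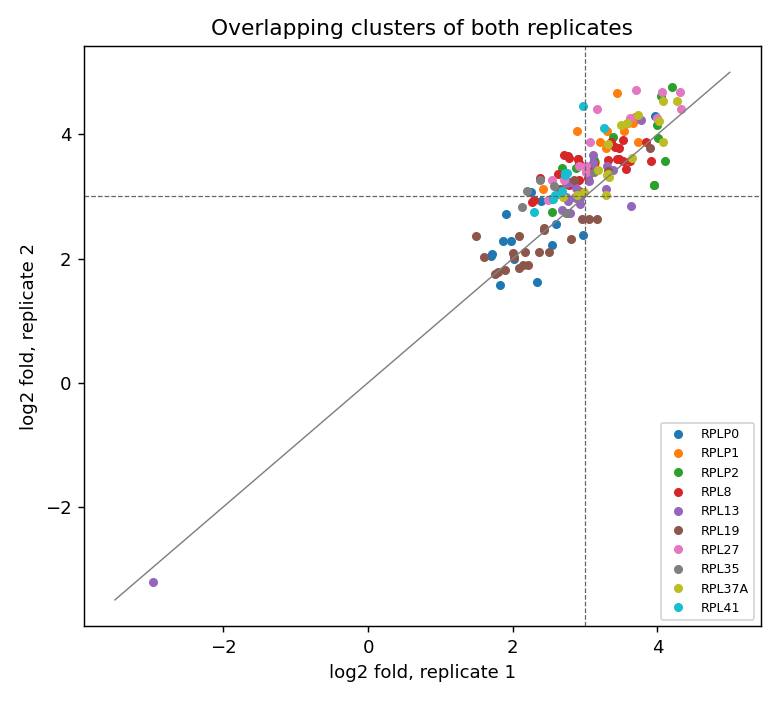
Log2 fold over input in replicate 2 (vertical axis) and replicate 1 (horizontal axis) for the 170 pairs of overlapping clusters, coloured by gene. Dashed lines are the threshold of 3 and the solid line marks equal values. Above it lie 133 pairs, 41 pass in replicate 2 alone and 3 in replicate 1 alone. Several pairs can share a replicate 2 cluster.

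In the authors' series-wide list the 10 genes held 101 regions, 1.41% of its regions and 0.510% of its bases. All 7153 regions of that list met the enrichment threshold, with a lowest log2 fold of 3.0004. The list's fold lay close to the mean of both replicates, with a median difference of 0.004 in the genes' regions. That cut therefore shaped the medians and the shares enriched given here. RPL8 had 28, RPLP2 had 16, RPL13 had 14, RPL37A had 13, RPLP1 had 11 and RPL27 had 10. RPL41 had 4, RPL19 had 3, and RPLP0 and RPL35 had 1 each. The regions were short, with a median width of 16 bases against 64 in the whole list, and many touched one another. With touching regions merged the genes held 49, and the whole list 5023. Both replicates were enriched at 83 of the 101 (82.2%, against 72.5% of all regions), and replicate 2 alone at 17 (16.8%, against 17.0%). The authors' log2 fold had a median of 3.50 in these regions and 3.65 in the whole list. The highest, 4.49 in RPL27, ranked 1032 of 7153. At the limit of 400 for −log10 p were 40 of the 101, or 39.6%, against 5.58% of the whole list.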

How the data were processed

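Per the labels' protocols, reads went through the authors' eCLIP pipeline, with hg19, UMI-tools 1.0.0, STAR 2.7.6a, SAMtools 1.6 and cutadapt 1.14 per the submitters' processing notes. How clusters were called, scaled for depth and paired with an input is not stated in the sources used here. For each interval the authors deposited a −log10 p and a log2 fold, both of eCLIP over input; no header states this, and it was inferred from the range and sign of the columns. Read depth is unknown. Starts were made 1-based. Overlap meant at least 1 shared base on 1 strand, and the longest overlap was the partner. All comparisons are descriptions: with 2 replicates no test was made, and the p-values compare single libraries per cluster. The genes and lists were chosen with earlier results of these data known, as were blocks (gaps of up to 50 bases) and loci (gaps of up to 5 kb). All 10 genes are named. Within a gene, regions named are the one with the highest lower replicate value and, with 3 or more regions, those nearest each end. Other large-subunit genes were planned but not analysed here, for want of hg19 coordinates, as was the protein comparison. Interval functions were tested on simulated data. The tools were pandas 2.3.3, numpy 2.4.6, matplotlib 3.10.9 and SciPy 1.17.1 under Python 3.11.15.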

Additional observations from a re-analysis of the deposited data

How the results depend on the processing

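Of 141 alternatives run, 116 left a value within its limits, 24 moved it and 1 reversed it. A count was held to 1.5 times, a share to its interval and a mean to 1 SD of the replicates. Leaving out a replicate could not move a mean or a 3′ minus 5′ difference, since each of 2 replicate values lies within 1 SD of their mean. Leaving out clusters below input changed nothing in genes that had none. The 116 thus include alternatives whose outcome was fixed in advance. At a log2 fold of at least 4, 3 genes had an enriched cluster in both replicates. The enriched share was then 6.36% in replicate 1 and 13.5% in replicate 2. Over all clusters, whatever their p, 2515 of 171755 and 3134 of 191899 had such a fold. Of the genes' 101 series-wide regions 17 were left, a lower share than the 2181 of 7153 in the whole list. At a log2 fold of at least 2 the enriched shares were 91.9% and 94.6%. Over all clusters, whatever their p, 43691 of 171755 and 51824 of 191899 had such a fold. Merging touching regions gave 49. Leaving out single genes gave shares of 42.3% to 51.4% in replicate 1 and 58.9% to 71.6% in replicate 2, where the highest, without RPL19, left the interval. Without replicate 1, or without replicate 2, all 10 genes had an enriched cluster in the other, which follows from the count in both replicates. Windows narrowed by 200 bases on each side left 7 genes with an enriched cluster in both replicates, which counted as within the limit of 1.5 times. RPLP0, RPL35 and RPL41 dropped out. Each had 1 enriched cluster in replicate 1, and it lay within 200 bases of a window edge. With the covered span cut into 2 parts in place of 3, the 3′ minus 5′ difference of RPLP2 was −0.28, and 0.83 without the clusters below input. All 10 genes kept the direction of this difference in the other alternatives, and 14 of the 60 moved its size. No paired analysis was possible because the inputs have no lists of their own here and no test was made. Alternatives without clusters below input, and the position alternatives without a replicate, were chosen after seeing the data. Read depth is unknown, so no error can be given for a single fold.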
